A study of Mus musculus with 4 samples.

Results

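The acute-phase genes Saa1, Saa2, Saa3, Lcn2, Hp and Lbp were followed across 4 Visium sections of mouse tissue. They are 6 of the 32285 genes listed per section, found by symbol, and were selected on their UMI levels in these same sections. Visium places a section on an array of barcoded spots and counts each captured transcript through a unique molecular identifier (UMI). Each spot samples a patch of tissue, often of mixed cell types, and is not a cell. The sections were facial skin, unwounded and at postoperative day 4, and oral mucosa, unwounded and at postoperative day 4, all flash-frozen and from wildtype mice. With 1 section per group, no difference could be set against replicate spread and no test was run. Every value below describes 1 section, and each 95% interval (exact, Poisson or binomial) covers counting error only. Because the genes were chosen for their levels, those levels are given as a description.

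The acute-phase response is the change in secreted proteins that follows injury or infection. Interleukin 1, interleukin 6 and tumour necrosis factor drive it through the transcription factors NF-kB, C/EBP and STAT3, mainly in the liver and also in fat, epithelia and macrophages. Saa1, Saa2 and Saa3 encode serum amyloid A apolipoproteins, the first 2 made chiefly by the liver and Saa3 chiefly outside it. Lcn2 encodes lipocalin 2, which starves bacteria by binding their siderophores and is also stored in neutrophil granules. Hp encodes haptoglobin, the plasma protein that binds free haemoglobin, and fat is a known source of it. Lbp encodes the lipopolysaccharide-binding protein that hands bacterial endotoxin to CD14.

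All 6 are protein-coding. In GRCm38.p6 coordinates the 3 Saa genes lie near each other, Saa3 (ENSMUSG00000040026) at chr7:46711998-46719615, Saa1 (ENSMUSG00000074115) at chr7:46740497-46743181 and Saa2 (ENSMUSG00000057465) at chr7:46751833-46754313. Lcn2 (ENSMUSG00000026822) lies at chr2:32384637-32387739, Lbp (ENSMUSG00000016024) at chr2:158306493-158332852 and Hp (ENSMUSG00000031722) at chr8:109575128-109579172. Upstream sequence was matched for 4 of the 6 genes in a RefSeq table of the same build. The 250 bases before the transcription start are shown for those 4, all of them lower in day 4 than unwounded facial skin, as Lbp was too. The windows are chr7:46742981-46743230 (minus strand) for Saa1, chr7:46751583-46751832 (plus strand) for Saa2, chr7:46715677-46715926 (minus strand) for Saa3 and chr2:32387740-32387989 (minus strand) for Lcn2. The Saa1 window lies partly, and the Saa3 window wholly, inside the annotated span of its gene. Capitals mark matches to a C/EBP-type motif, TTGCNNAA, and an NF-kB-type motif, GG and TTTCC with any 3 bases between them, searched on both strands and written 5′ to 3′ on the strand of the gene.
Saa1: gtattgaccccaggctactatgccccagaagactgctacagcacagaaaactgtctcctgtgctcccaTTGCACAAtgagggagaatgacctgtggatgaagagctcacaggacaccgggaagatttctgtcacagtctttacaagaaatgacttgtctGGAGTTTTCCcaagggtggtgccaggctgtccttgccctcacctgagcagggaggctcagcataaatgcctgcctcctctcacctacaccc
Saa2: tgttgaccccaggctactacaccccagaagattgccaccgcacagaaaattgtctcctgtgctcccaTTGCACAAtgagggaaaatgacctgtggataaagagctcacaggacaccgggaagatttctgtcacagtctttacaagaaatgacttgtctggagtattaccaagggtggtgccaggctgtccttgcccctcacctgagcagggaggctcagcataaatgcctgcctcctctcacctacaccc
Saa3: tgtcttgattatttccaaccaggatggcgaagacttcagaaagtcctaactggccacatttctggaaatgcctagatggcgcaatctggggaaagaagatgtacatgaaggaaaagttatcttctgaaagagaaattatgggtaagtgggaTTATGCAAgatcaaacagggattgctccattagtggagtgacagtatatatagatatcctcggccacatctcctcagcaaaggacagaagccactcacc
Lcn2: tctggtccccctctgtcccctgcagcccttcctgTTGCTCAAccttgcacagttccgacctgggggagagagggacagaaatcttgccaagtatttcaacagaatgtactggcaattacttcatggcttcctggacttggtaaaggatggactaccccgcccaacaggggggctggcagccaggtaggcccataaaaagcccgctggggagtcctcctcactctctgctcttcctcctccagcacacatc

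The C/EBP-type motif was found in all 4 windows, 182 to 175 bases before the start in Saa1, 183 to 176 in Saa2, 216 to 209 in Lcn2 and, on the opposite strand, 99 to 92 in Saa3. It occurred in 9.56% of 32851 promoter windows of the same length. The NF-kB-type motif was found only in Saa1 among these windows, 91 to 82 bases before the start, and in 4.63% of all windows. A STAT-type motif, TTCNNNGAA, was in none of the 4 and in 7.02% of all windows. A match is a run of letters and not a measured binding site. The Saa1 and Saa2 windows were identical at 238 of 251 aligned positions (94.8%), against 48.5% for Saa1 and Saa3. Since Saa1 and Saa2 are near-identical copies, how reads that fit both genes were counted bears on their split, and it is not given in the sources used here. The split between them is therefore uncertain.

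The sections differed in depth, in tissue makeup and in several marker lists. They held 430 to 1288 spots under tissue and 3004174 to 11939479 UMIs, with medians per spot from 98 in unwounded oral mucosa to 16128 in unwounded facial skin. Mitochondrial transcripts took 2.71% and 2.75% of UMIs in facial skin (unwounded, then day 4) but 20.8% and 11.9% in oral mucosa. The unwounded sections (facial, then oral) carried 587 and 280 UMIs of the Y-linked gene Ddx3y and the day 4 sections 0. Xist, which is expressed in female cells, had 1 and 0 UMIs in the unwounded and 909 and 84 in the day 4 sections. Wounding therefore cannot be told apart from sex or from animal in either tissue, for any gene. The section labelled unwounded facial skin also had the highest summed level of 14 neutrophil markers, 438 CPM (counts per 1000000 UMIs), against 91.0 CPM in day 4 facial skin, 15.2 in unwounded and 206 in day 4 oral mucosa. All 14 had UMIs there, 13 in day 4 facial skin, where Ly6g was at 0, 10 in unwounded oral mucosa, and 12 in day 4 oral mucosa. Hepatocyte markers were at or near 0, with 7 of them summing to between 0.686 and 1.93 CPM and with Fgb, Serpina1c and Cyp3a11 at 0 in all 4 sections. The labelled tissues carried their markers, with all 18 epithelial markers detected in every section and muscle markers at 56339 and 47410 CPM in unwounded and day 4 oral mucosa.

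All 3 Saa genes were highest in the section labelled unwounded facial skin. Saa3 had 12667 UMIs there (1061 CPM, 1043 to 1080), 311 in day 4 facial skin (31.3 CPM, 27.9 to 35.0), 3 in unwounded oral mucosa (0.412 CPM, 0.0849 to 1.20) and 198 in day 4 oral mucosa (65.9 CPM, 57.0 to 75.8). The 4 intervals did not overlap, and the order was unwounded facial skin, day 4 oral mucosa, day 4 facial skin and unwounded oral mucosa. Saa1 had 778 UMIs in unwounded facial skin (65.2 CPM, 60.7 to 69.9) and 75 in day 4 facial skin (7.55 CPM, 5.94 to 9.46). In oral mucosa Saa1 had 3 UMIs when unwounded (0.412 CPM) and 5 at day 4 (1.66 CPM), with overlapping intervals. Saa2 had 129 UMIs in unwounded facial skin (10.8 CPM, 9.02 to 12.8), 2 in day 4 facial skin (0.201 CPM) and 0 in both oral sections, where 3 UMIs would be 0.412 CPM when unwounded and 0.999 at day 4. Unwounded facial skin held 6.03 Saa1 UMIs per Saa2 UMI (4.9999 to 7.32).

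Lcn2, Hp and Lbp were also highest in unwounded facial skin but did not all share an order below it. Lcn2 had 2275 UMIs in unwounded facial skin (191 CPM, 183 to 199), 86 at day 4 in facial skin (8.66 CPM, 6.92 to 10.7), 29 in unwounded oral mucosa (3.98 CPM, 2.67 to 5.72) and 41 at day 4 in oral mucosa (13.6 CPM, 9.79 to 18.5). The intervals of the 2 day 4 sections overlapped. Hp had 2603 UMIs in unwounded facial skin (218 CPM, 209.7 to 227), 1593 at day 4 in facial skin (160.4 CPM, 153 to 168), 20 in unwounded oral mucosa (2.75 CPM, 1.68 to 4.24) and 70 at day 4 in oral mucosa (23.3 CPM, 18.2 to 29.4). Facial skin was thus above oral mucosa at both times for Hp, with no overlap, as it was for Saa1 and Lbp. Lbp had 1136 UMIs in unwounded facial skin (95.1 CPM, 89.7 to 100.8), 309 at day 4 in facial skin (31.1 CPM, 27.7 to 34.8), 89 in unwounded oral mucosa (12.2 CPM, 9.81 to 15.03) and 52 at day 4 in oral mucosa (17.3 CPM, 12.9 to 22.7). It had the narrowest span of the 6, and its 2 oral intervals overlapped.

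In spots with at least 1000 UMIs, a Saa3 UMI was found in 91.6% in unwounded facial skin, 14.8% in day 4 facial skin, 0.574% in unwounded oral mucosa and 23.3% in day 4 oral mucosa. The spots had medians of 16467, 5657.5, 13797 and 6657 UMIs in the same order, and after thinning each spot to 1000 UMIs the shares were 39.7%, 4.65%, 0.191% and 7.12%. Muscle spots of unwounded oral mucosa, taken as a tissue that should lack Saa3, held a Saa3 UMI in 0.336% (median 14959 UMIs). Hp went from 60.9% of spots in unwounded facial skin to 45.1% at day 4, and from 12.9% to 18.2% after thinning. No order is read from the Hp shares, because the thinned ones run against its CPM. Within unwounded facial skin 22 spots held 50% of the 129 Saa2 UMIs, 23 spots 50% of Hp, 37 of Lbp, 48 of Saa3, 66 of Saa1 and 78 of Lcn2. The fullest 10% of spots held 87.6% of Saa2, 71.3% of Hp, 60.3% of Lbp, 55.8% of Saa3, 42.9% of Saa1 and 40.1% of Lcn2 UMIs.

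**Figure D1:**
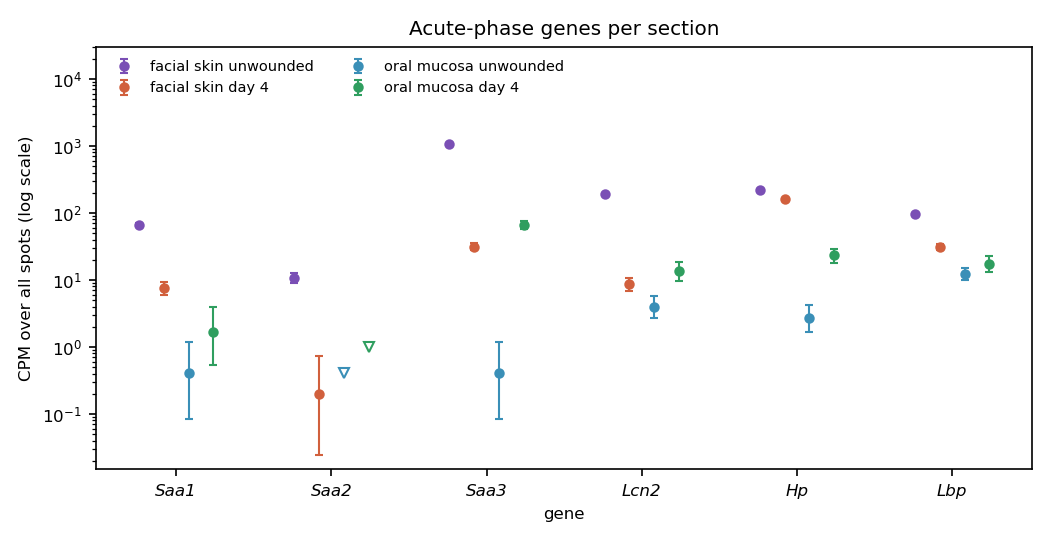
Level of each acute-phase gene over all spots of a section, in CPM on a log axis, with points for the 4 sections and bars for the exact 95% Poisson interval. Open triangles mark the level of 3 UMIs for Saa2, which had 0 UMIs in both oral sections. Unwounded facial skin holds the highest point for all 6 genes, from 10.8 CPM for Saa2 to 1061 CPM for Saa3.

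A gene counted as higher or lower in a comparison when its CPM differed at least 1.5-fold with non-overlapping intervals, among genes with at least 20 UMIs over both sides. In day 4 against unwounded facial skin, 5 of the 6 genes were lower and 0 higher, beside a background of 8.59% of 14231 genes lower and 6.09% higher. These values were in view when the genes were chosen, and nothing is read from the counts in these 4 section comparisons. The same holds for counts between the same classes of 2 sections and between classes within 1 section. Saa3 was 33.9-fold lower, Lcn2 22.0-fold lower, Saa1 8.63-fold lower and Lbp 3.06-fold lower. Leaving out 1 part moved the Saa3 log2 ratio of -5.08 to between -6.61 (without part 1 of day 4) and -4.05 (without part 1 of the unwounded section), that of Saa1 from -3.11 to as far as -4.90 (without part 3 of day 4), that of Lcn2 from -4.46 to as far as -5.20 (the same part) and that of Lbp from -1.61 to as far as -1.07 (without part 4 of the unwounded section). For Saa2, with 2 UMIs at day 4, the log2 ratio was -5.75 (-8.81 to -3.86). Hp was 1.36-fold lower and so counted as neither, and without part 1 of the unwounded section its log2 ratio was 0.64, above 0 (4 parts were made of each section by cutting it at the median row and the median column of its spots). In sums over spots, fewer cells of a type and less RNA per cell cannot be told apart. Neutrophil markers (438 against 91.0 CPM) and inducing cytokines (463 against 42.9 CPM) were also higher in the unwounded section. Without the neutrophil-class spots Saa3 was at a log2 ratio of -5.13, and 5 genes were lower, and without fat, fibroblast, macrophage and neutrophil spots on both sides 6 were lower, with Saa3 at -6.19.

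In day 4 against unwounded oral mucosa, 3 of 4 genes with enough UMIs were higher and 0 lower, where 20.6% of 12544 genes were higher and 3.56% lower. Saa3 had the widest difference, a log2 ratio of 7.32 (5.75 to 9.61) from 3 UMIs to 198. Hp was 8.49-fold higher (a log2 ratio of 3.09, which was 1.23 without part 2 of day 4 and 6.19 without part 4 of the unwounded section) and Lcn2 3.43-fold higher, while the Lbp log2 ratio of 0.50 (-0.02 to 1.01) counted as neither. Neutrophil markers summed to 206 CPM in the day 4 and 15.2 CPM in the unwounded oral section, and their part in the result was not tested. Without the neutrophil-class spots Saa3 was at a log2 ratio of 6.61 and Hp at 2.08, while Lcn2 dropped to 1.12 and was no longer counted. Without part 2 of the day 4 section Lcn2 was at 1.04 and was also not counted. The day 4 oral section formed 2 pieces, of 298 and 67 spots, and the smaller held no neutrophil-class spots. Saa3 stood at 83.8 CPM (72.3 to 96.5) in the larger and 1.44 CPM (0.0365 to 8.03) in the smaller piece. Hp stood at 28.1 and 4.32 CPM and Lcn2 at 16.7 and 4.32 CPM in the same order. In the smaller piece, of 694205 UMIs, the intervals of these 3 genes overlapped those of unwounded oral mucosa.

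Between tissues, unwounded oral mucosa was below unwounded facial skin for all 6 genes, beside 59.7% of 14026 genes lower and 10.1% higher. The median log2 ratio of all genes tested was -0.93. Saa3 had a log2 ratio of -11.33 (-13.61 to -9.78), Saa1 of -7.31 (-9.59 to -5.75), Hp of -6.31 (-7.02 to -5.68) and Lcn2 of -5.58 (-6.16 to -5.05). Saa2 was 26.2-fold lower with its 0 UMIs set to 3 (upper limit of the log2 ratio -4.39), and Lbp was 7.79-fold lower. Between the day 4 sections 1 of 5 usable genes was higher and 3 were lower in oral mucosa, with Saa3 2.11-fold higher and Hp 6.88-fold lower, Saa1 4.54-fold lower and Lbp 1.80-fold lower, where 11.5% of 13633 genes were higher and 35.5% lower. Lcn2 was 1.58-fold higher there but its intervals overlapped. The Saa3 call rested on a small area, since the log2 ratio of 1.07 became 0.35 without neutrophil-class spots and 0.01 without part 2 of the day 4 oral section. It was 2.60 without part 1 of the day 4 facial section. The comparisons share sections with each other, so their ratios are not independent.

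To separate epithelial from fat and stromal spots, each spot with at least 1000 UMIs was given the class of the marker list most enriched in it, or called mixed where no list reached 2 times its mean share over the sections (a log2 score of 1). None of the 6 genes is in a class list. In unwounded facial skin this gave 160 sebaceous, 78 neutrophil, 48 macrophage, 31 fibroblast, 24 fat, 17 hair follicle and 11 epithelium spots, and 284 mixed ones. Epithelial markers took 52533 CPM of that whole section, and 10 of the 11 epithelium spots lay near the limit. Among the mixed spots 162 scored highest for epithelium. Without the score limit, an alternative added after seeing the data, the epithelium class held 173 spots and 3858934 UMIs, and its values are given beside those of the 11 spots.

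In unwounded facial skin the genes were higher in spots rich in stromal and fat markers and lower in spots rich in epithelial markers. Saa3 stood at 3811 CPM (3629 to 3999) in fibroblast spots, 2746 CPM (2586 to 2913) in fat spots, 3112 CPM in macrophage spots and 3911 CPM in hair follicle spots. It stood at 89.5 CPM (24.4 to 229) in the 11 epithelium spots, which held 4 Saa3 UMIs, and at 207 CPM (192 to 221) in the 173 spots without the limit. Hp stood at 2388 CPM (2239 to 2544) in fat spots and 761 CPM (681 to 848) in fibroblast spots, and had 0 UMIs in the 11 epithelium spots (24.1 CPM, 19.5 to 29.5, in the 173). Lbp stood at 452 CPM (389 to 523) in fat spots and 397 CPM (340 to 461) in fibroblast spots, against 14.5 CPM (10.96 to 18.8) in the 173 epithelium spots. Saa1 was flatter, at 139 CPM in fat, 111 CPM in fibroblast and 31.9 CPM in the 173 epithelium spots, and Saa2 stood at 64.6, 29.99 and 2.33 CPM in the same order.

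The highest class of Lcn2 in this section was sebaceous, at 324 CPM (304 to 345, 160 spots), with fat (268 CPM), fibroblast (265 CPM), hair follicle (265 CPM) and macrophage spots (288 CPM) close below. Neutrophil spots held 149 CPM (123 to 180). The 173 epithelium spots held 85.8 CPM (76.8 to 95.5). Against fibroblast spots, sebaceous spots were 3.72-fold lower for Saa3, 8.73-fold lower for Hp and 5.36-fold lower for Lbp, while Lcn2 (1.22-fold higher), Saa1 (1.39-fold lower) and Saa2 (2.54-fold lower) were counted as neither. That makes 3 of 6 lower, where 10.6% of 11312 genes were lower and 7.02% higher.

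**Figure D2:**
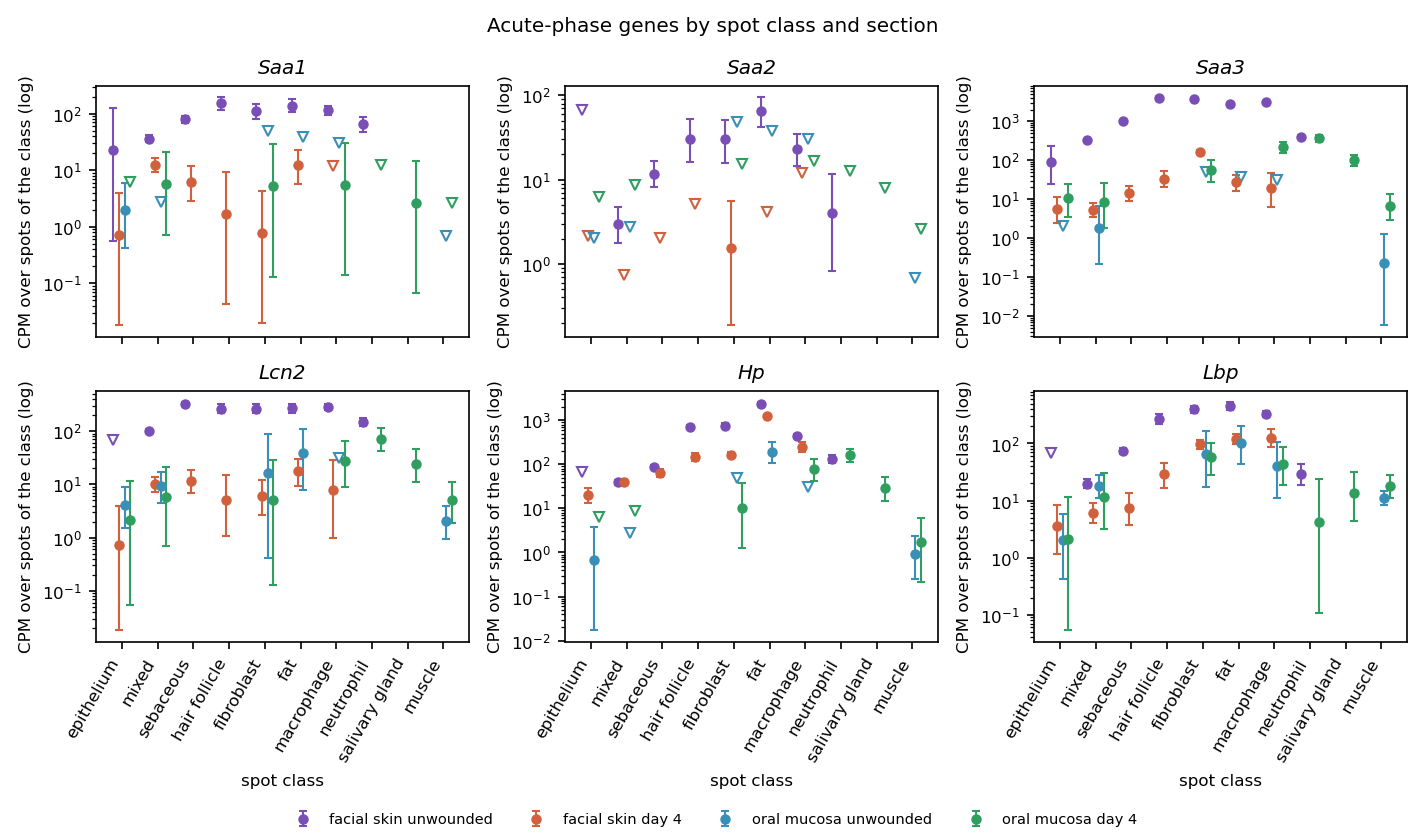
Level of each gene over the spots of a class, in CPM on a log axis, with 1 panel per gene, the spot classes along the horizontal axis and a colour for each section. Bars are exact 95% Poisson intervals and open triangles mark 3 UMIs where a class held none. Hp peaks in fat spots in both facial sections (2388 and 1236 CPM), and Saa3 in day 4 oral mucosa peaks in neutrophil spots (366 CPM).

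Epithelium against fibroblast spots of unwounded facial skin gave 4 of 5 usable genes lower, where 9.73% of 5088 genes were lower and 7.76% higher. Saa3 was 42.6-fold lower (log2 ratio -5.41, -7.29 to -4.05). With 0 UMIs in the epithelium spots set to 3, Hp was 11.3-fold, Lbp 5.91-fold and Lcn2 3.95-fold lower. The upper limits of their log2 ratios were -3.20, -2.25 and -1.66. The 11 epithelium spots had a median of 2568 UMIs against 13975 in the fibroblast spots, and leaving out part 2 of the section left no epithelium spots to compare. In fat against fibroblast spots only Hp was counted, 3.14-fold higher, beside 1.75% of 7725 genes higher and 1.39% lower. The call was lost when the most fat-rich and the most fibroblast-rich bins by marker share were compared instead (Hp log2 ratio 0.086, against 1.65 by class), and the log2 ratio was 3.83 without part 1 of the section. Saa3 was 1.39-fold lower and Lbp 1.14-fold higher in fat, both counted as neither. Fibroblast markers took 2.54% of UMIs in the fat spots and 2.44% in the fibroblast spots. Macrophage markers took 0.603% in the fat spots and 0.557% in the macrophage spots of this section. The fat spots thus also held stroma, and the classes do not isolate fat from stroma. Fat against epithelium spots gave 4 of 6 higher, where 10.7% of 5003 genes were higher and 8.04% lower, with Saa3 30.7-fold higher. With 0 UMIs set to 3, Hp was 35.6-fold and Lbp 6.74-fold higher. The lower limits of their log2 ratios were 4.85 and 2.44.

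Spots were also ranked by marker share, without a class limit. When the 653 spots were divided into 4 equal bins by their epithelial marker share, Saa3 stood at 2507, 1120, 415 and 188 CPM from the least to the most epithelial bin. Lcn2 stood at 325, 257, 115 and 79.2 CPM, Lbp at 269, 65.1, 20.1 and 14.5 CPM and Saa1 at 117, 65.5, 41.4 and 35.3 CPM. By fat marker share, Hp stood at 43.5, 38.8, 67.2 and 801 CPM and Saa3 at 373, 419, 865 and 2843 CPM, both highest in the most fat-rich bin. By fibroblast share, Saa3 stood at 179, 447, 883 and 2975 CPM. Across the 653 spots, which share 1 library, the Spearman correlation of Saa3 was 0.67 with the fibroblast share and -0.62 with the epithelial share. For Hp it was 0.47 with the fat share, 0.51 with the fibroblast share and 0.50 with the macrophage share. With the sebaceous share the correlation was 0.54 for Saa3 and 0.38 for Lcn2, and Lcn2 correlated 0.49 with Saa3.

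**Figure D3:**
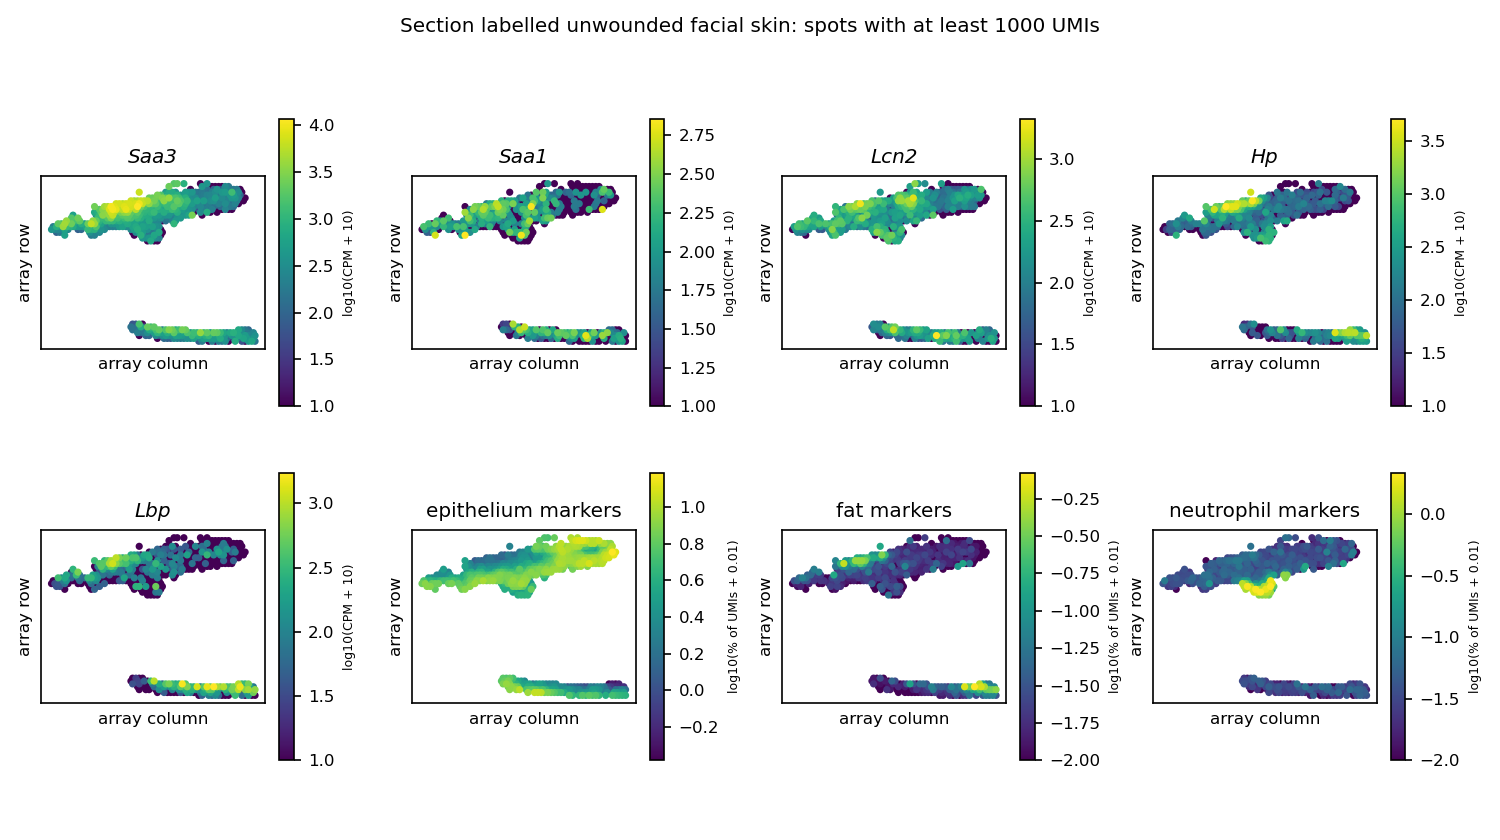
Spots with at least 1000 UMIs of the section labelled unwounded facial skin, drawn at their array row and column, coloured by the log10 level of 5 acute-phase genes (CPM plus 10) or by the log10 share of marker UMIs (percent plus 0.01). The section forms 2 separate pieces of 510 and 142 spots, with all 78 neutrophil-class spots in the larger one. Saa3 is 399 CPM in the neutrophil-class spots and 1831 CPM at 4 to 6 array steps from them.

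The unwounded facial section consisted of 2 pieces of tissue, and the genes were high in both. The larger piece, of 510 spots, held all 78 neutrophil-class spots, and the smaller, of 142 spots, held none. Saa1 stood at 65.6 CPM in the larger and 63.7 CPM in the smaller piece, Hp at 215 and 221 CPM and Lcn2 at 195 and 173 CPM. Saa3 stood at 1244 CPM in the larger and 431 CPM (407 to 457) in the smaller piece, and Lbp at 68.5 and 186 CPM. The smaller piece was above the day 4 facial section for all 6 genes, and its neutrophil markers took 0.0158% of UMIs against 0.052% in the larger one.

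In day 4 facial skin the highest class was fat for Hp and fibroblast for Saa3, while Saa1, Saa2 and Lcn2 stayed at or below 17.7 CPM in every class. Hp stood at 1236 CPM (1157 to 1319) in 166 fat spots, 250.1 CPM in 53 macrophage spots, 167 CPM (146 to 191) in 324 fibroblast spots and 19.9 CPM (13.2 to 28.8) in 78 epithelium spots. Saa3 was highest in fibroblast spots, at 164 CPM (143 to 188), and stood at 27.2 CPM in fat, 19.8 CPM in macrophage and 5.69 CPM in epithelium spots. Lbp stood at 121 CPM in fat, 127 CPM in macrophage, 97.2 CPM in fibroblast and 3.56 CPM in epithelium spots. Lcn2 lay between 0.711 CPM in epithelium and 17.7 CPM in fat spots.

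Within this section, epithelium against fibroblast spots gave 3 of 3 usable genes lower, where 42.1% of 10704 genes were lower and 13.5% higher: Saa3 28.9-fold, Lbp 27.3-fold and Hp 8.40-fold. Fat against fibroblast spots gave Hp 7.39-fold higher and Saa3 6.04-fold lower, beside 5.5% of 10646 genes higher and 5.31% lower. By class, Hp was thus counted as higher in fat in both facial sections, in the unwounded one only by class and not by bins of marker share, and Saa3 was counted as lower in fat at day 4. For Hp the fat-to-fibroblast log2 ratio was 1.65 (1.47 to 1.83) in the unwounded section and 2.88 (2.67 to 3.10) in the day 4 section. The difference between them was not tested. Fat against epithelium spots gave 3 of 3 higher, where 36.9% of 9758 genes were higher and 11.2% lower, with Hp 62.1-fold, Lbp 34.0-fold and Saa3 4.78-fold higher.

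Class by class, the facial wound comparison differed in size between genes. These class values are parts of the section levels on which the genes were chosen, so nothing is read from the counts. In fat spots all 6 genes were lower at day 4, where 7.04% of 9049 genes were lower and 4.5% higher. Saa3 was 101-fold lower, Lcn2 15.2-fold, Saa1 11.4-fold, Lbp 3.74-fold and Hp 1.93-fold lower. Saa2 was 15.8-fold lower with its 0 UMIs set to 3 (upper limit of the log2 ratio -3.58). In fibroblast spots 5 of 5 usable genes were lower, where 6.48% of 10214 genes were lower and 7.35% higher, with Lcn2 43.0-fold, Saa3 23.2-fold, Hp 4.55-fold and Lbp 4.08-fold lower. The Hp value turned to a log2 ratio of 0.32 without part 1 of the unwounded section. In sebaceous spots 5 of 6 were lower, where 9.55% of 11596 genes were lower and 2.87% higher, with Saa3 71.3-fold and Lcn2 27.9-fold lower and Hp counted as neither (1.37-fold). In epithelium spots 0 of 1 usable gene was counted, where 3.62% of 7163 genes were lower and 1.97% higher. The unwounded side was 11 spots with a median of 2568 UMIs, too few to compare the other genes. Without the score limit 4 genes were lower. In the lower and upper ranks of those spots by stress keratin share, Saa3 stood at 186 and 225 CPM unwounded. At day 4 it stood at 2.80 and 6.45 CPM. Lcn2 stood at 78.5 and 92.5 against 8.79 and 5.06 CPM. Hp went both ways, at 22.1 and 26.0 against 27.6 and 23.5 CPM.

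Saa1 had another pattern at day 4. Its 75 UMIs in day 4 facial skin lay in 38 spots, 7 of which held 50% of them, and the fullest spot held 14. Mixed spots held 51 of the 75 UMIs (12.6 CPM, 9.36 to 16.5), fat spots 9 (12.2 CPM, 5.595 to 23.2) and the 324 fibroblast spots 1 (0.771 CPM, 0.0195 to 4.30). From the least to the most epithelial bin Saa1 stood at 0.84, 6.14, 4.17 and 11.3 CPM, while Saa3 in the same spots stood at 138, 61.4, 18.4 and 4.68 CPM. Part 3 of the section held Saa1 at 15.7 CPM and the other parts at 0 to 3.33 CPM, and without it the facial wound log2 ratio of Saa1 moved from -3.11 to -4.90. The pieces of this section also differed, with Saa1 at 10.1 CPM and Saa3 at 6.28 CPM in the larger one and 2.70 and 73.0 CPM in the smaller one.

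**Figure D4:**
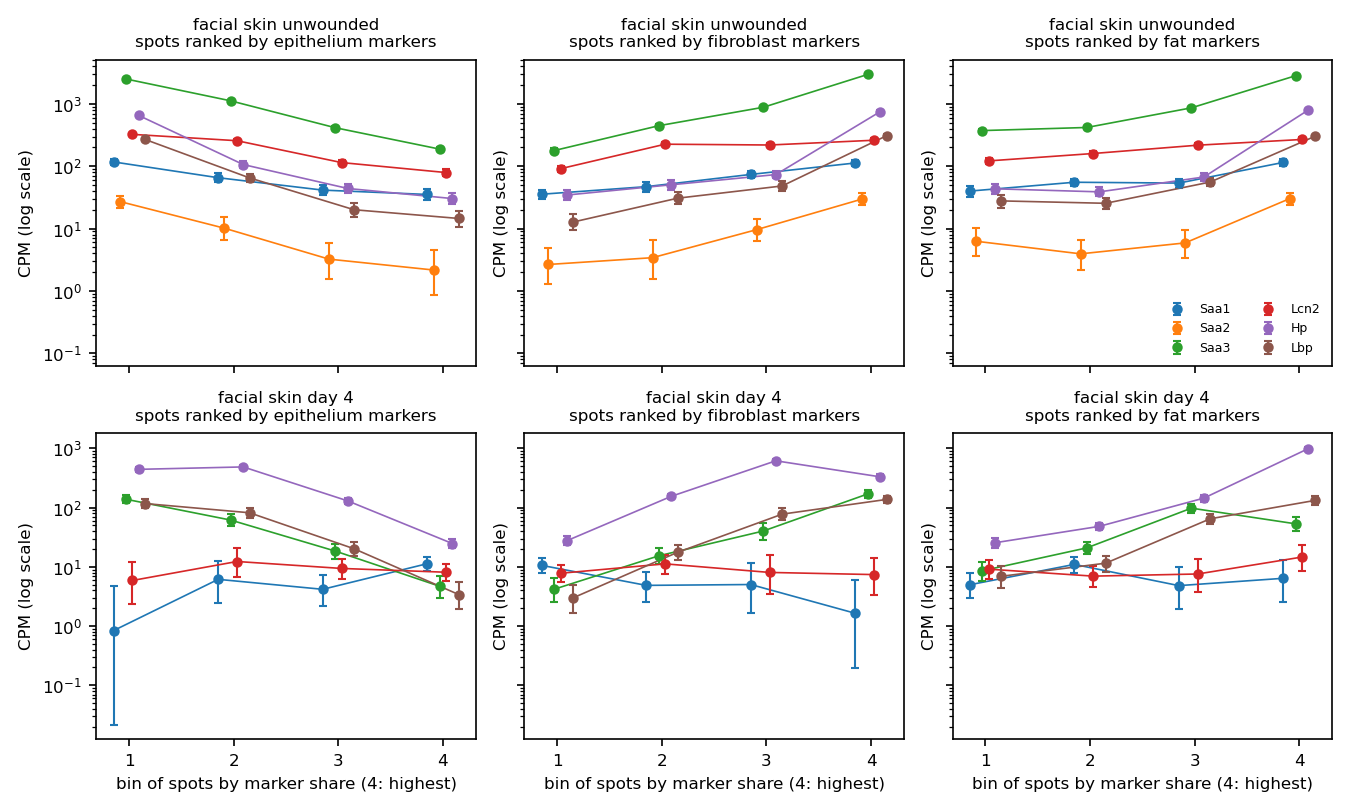
Level of each gene in CPM (log axis) in 4 equal bins of the spots of a facial section, ranked from the lowest (1) to the highest (4) share of epithelial, fibroblast or fat markers, with the unwounded section above and the day 4 section below. Bars are exact 95% Poisson intervals, and Saa2, with 2 UMIs, is left out at day 4. Saa3, Hp and Lbp are lower in the most epithelial bin in both sections, while Saa1 at day 4 is 0.84 CPM in the least and 11.3 CPM in the most epithelial bin.

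Unwounded oral mucosa held little of any of the genes. Of 20 Hp UMIs, 15 lay in 14 fat spots (191 CPM, 107 to 315), and the 97 epithelium spots held 1 (0.672 CPM). Lbp was spread more widely, at 102 CPM (43.9 to 200) in fat, 64.6 CPM (17.6 to 165) in 14 fibroblast, 11.2 CPM (8.26 to 14.8) in 298 muscle and 2.02 CPM (0.416 to 5.90) in epithelium spots. Lcn2 stood at 4.03 CPM (1.48 to 8.78) in epithelium spots. Saa3 had 0 UMIs in fat, fibroblast and epithelium spots, where 3 of the 97 epithelium spots would be 3.09%. Compared with the fat spots of unwounded facial skin, oral fat spots were 12.5-fold lower for Hp and 4.44-fold lower for Lbp. Saa3 was 72.0-fold lower with its 0 UMIs set to 3 (upper limit of the log2 ratio -5.87). This comparison had 5 of 6 genes lower, where 12.8% of 5241 genes were lower and 6.39% higher. Against the fibroblast spots of unwounded facial skin, 5 of 5 usable genes were lower in oral fibroblast spots, where 6.83% of 5227 genes were lower and 4.17% higher. No member had enough UMIs for the epithelium comparison between the unwounded tissues (6.54% of 7065 genes lower, 3.06% higher). The same held within unwounded oral mucosa for epithelium against fibroblast (10.6% of 7252 genes lower, 5.93% higher), fat against fibroblast (4.8% of 1104 lower, 6.61% higher) and fat against epithelium spots (8.72% of 7314 lower, 12.1% higher).

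In day 4 oral mucosa Saa3, Hp and Lcn2 were highest in the neutrophil spots. The 32 neutrophil spots held Saa3 at 366 CPM (293 to 451), Hp at 160 CPM (113 to 219) and Lcn2 at 71.4 CPM (41.6 to 114). The 36 macrophage spots held Saa3 at 220 CPM (157 to 299) and Hp at 76.9 CPM (42.1 to 129), and the 101 salivary gland spots held Saa3 at 101 CPM (71.5 to 139). For Saa3 and Hp the neutrophil and macrophage intervals overlapped. Across the 365 spots Saa3 had a Spearman correlation of 0.40 with the macrophage and 0.35 with the neutrophil share. For Hp these were 0.26 and 0.38, and for Lcn2 0.099 and 0.16. The 35 fibroblast spots held Saa3 at 56.8 CPM (28.4 to 102), the 24 epithelium spots at 10.5 CPM (3.403 to 24.5) and the 108 muscle spots at 6.88 CPM (2.97 to 13.6). Hp had 0 UMIs in the epithelium spots, and with 1 fat spot in the section its level in fat could not be given. Lbp went the other way, with 1 UMI in the neutrophil spots (4.20 CPM, 0.106 to 23.4) and 56.8 CPM (28.4 to 102) in the fibroblast spots.

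Neutrophil against muscle spots of that section gave 3 of 4 usable genes higher, where 41.1% of 5942 genes were higher and 11.3% lower, with Saa3 53.1-fold higher, Lcn2 13.8-fold higher and Hp at a log2 ratio of 6.54 (4.58 to 9.63). By distance on the array, Saa3 stood at 366 CPM in neutrophil spots, 121 CPM 1 step away, 121 CPM at 2 to 3 steps, 97.8 CPM at 4 to 6 steps and 18.8 CPM at 7 or more. Hp stood at 160, 22.3, 58.1, 34.9 and 3.67 CPM over the same distances. In unwounded facial skin Saa3 was lowest in the neutrophil spots and did not rise steadily, at 399, 553, 954, 1831 and 704 CPM. In both sections array distance also ran across the gap to the smaller piece of tissue, which held no neutrophil-class spots. In the facial neutrophil spots epithelial markers took 6.28% and fibroblast markers 0.336% of UMIs. Those shares were 1.62% and 2.44% in facial fibroblast spots, and the part of tissue makeup in the distances was not tested. Neutrophil spots of the 2 sections held similar levels of Saa3 (366 in oral against 399 CPM in facial, log2 ratio -0.13, -0.49 to 0.22) and of Hp (160 against 131 CPM, 0.29, -0.29 to 0.84). Lcn2 was 2.09-fold lower in the oral neutrophil spots. Saa1 was 5.19-fold lower there with its 0 UMIs set to 3 (upper limit of the log2 ratio -2.02). Thus 2 of 5 usable genes were lower, where 14.5% of 7237 genes were lower and 9.76% higher.

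**Figure D5:**
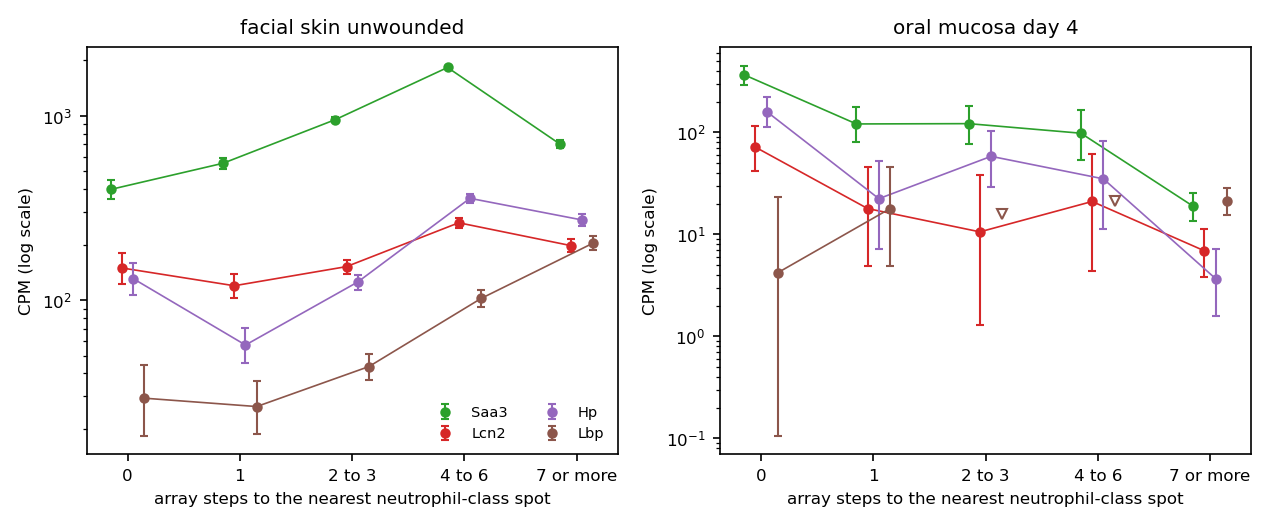
Level of Saa3, Lcn2, Hp and Lbp in CPM (log axis) by the number of array steps from a spot to the nearest neutrophil-class spot, in unwounded facial skin and day 4 oral mucosa. Bars are exact 95% Poisson intervals and open triangles mark 3 UMIs where a bin held none. Saa3 is highest in the neutrophil spots of day 4 oral mucosa (366 CPM) and highest at 4 to 6 steps in unwounded facial skin (1831 CPM).

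Epithelium spots of the day 4 oral section held too few UMIs for a comparison with unwounded oral mucosa, where 3.71% of 7815 genes were higher and 4.09% lower, or with fibroblast spots of the same section, where 14.3% of 4910 genes were higher and 22.2% lower. Against epithelium spots of day 4 facial skin only Hp was counted, as lower, beside 12.5% of 8002 genes lower and 7.32% higher. Hp was 3.17-fold lower with its 0 UMIs set to 3 (upper limit of the log2 ratio -1.27). Without part 2 of the oral section that call was lost and the log2 ratio was 0.039. The fibroblast comparison had no usable gene within oral mucosa (6.78% of 2287 genes higher, 4.2% lower). Between the day 4 tissues, fibroblast spots were lower in oral mucosa for Saa3 (2.89-fold) and Hp (log2 ratio -4.02, -7.07 to -2.15), 2 of 3 usable genes, where 10.6% of 9735 genes were lower and 6.12% higher. The Saa3 direction turned without part 2 of the oral section (0.38) or part 1 of the facial one (0.17). In macrophage spots of day 4 oral mucosa against those of unwounded facial skin, 5 of 6 genes were lower, Saa3 14.2-fold, where 9.61% of 8791 genes were lower and 5.31% higher.

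Genes listed as driving or accompanying the response were compared between the same sections, and a part of theirs in the levels of the 6 genes was not tested. Of 6 usable inducing cytokines, 6 were lower at day 4 in facial skin, where 8.59% of all genes tested were lower and 6.09% higher. They included Il1b, interleukin 1 beta (33.3-fold), the interleukin 6 family member Osm (18.7-fold), Tnf (11.2-fold) and Il6 (7.49-fold). Among transcription and feedback genes 7 of 10 were lower, with Socs3, the inhibitor of STAT3 signalling, 4.21-fold lower and the RNase gene Zc3h12a 4.07-fold lower. Of the cytokine receptors 3 of 9 were lower, led by the oncostatin receptor Osmr (2.10-fold). Other acute-phase genes were lower for 5 of 8, with the protease inhibitor Serpina3n 4.27-fold, the complement genes Cfb 2.82-fold and C3 2.64-fold lower. Of genes for binding partners and receptors 7 of 11 were lower, among them the endotoxin receptor Cd14 (11.8-fold) and the haemoglobin-haptoglobin receptor Cd163 (6.44-fold). None of these 5 lists had a higher member. Their median log2 ratios with 10 CPM added ran from -1.23 for transcription and feedback to -0.16 for cytokine receptors, beside -0.03 for all genes tested.

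In oral mucosa, where 20.6% of all genes tested were higher at day 4 and 3.56% lower, the list medians were above that of all genes tested. Of inducing cytokines 2 of 3 were higher, Il1b at 129 against 0.961 CPM (134-fold) and Il6. With its 0 UMIs set to 3, Il6 was 21.8-fold higher (lower limit of the log2 ratio 4.05). Transcription and feedback genes were higher for 6 of 10, with Socs3 7.07-fold and the NF-kB cofactor Bcl3 4.45-fold higher. Other acute-phase genes were higher for 6 of 7, led by the pentraxin Ptx3 (3.69-fold) and Cfb (3.43-fold). Genes listed as binding partners and receptors were higher for 5 of 10 with 1 lower, among them Mmp9 (70.7-fold) and Cd14 (31.7-fold). Mmp9, a gelatinase gene, is also one of the neutrophil markers. Receptors were higher for 4 of 9, Il1rap 4.04-fold. List medians lay between 0.40 and 0.93, beside 0.17 for all genes tested. In unwounded oral against unwounded facial skin, where 59.7% of all genes tested were lower, the count was lower for 6 of 6 cytokines, 9 of 9 receptors, 10 of 10 transcription and feedback genes, 8 of 8 other acute-phase genes and 9 of 11 binding partners. In day 4 oral against day 4 facial skin, where 11.5% of all genes tested were higher and 35.5% lower, the lists were split, with 2 higher and 1 lower of 4 cytokines, 0 and 5 of 9 receptors, 3 and 4 of 10 transcription and feedback genes, 1 and 3 of 8 other acute-phase genes and 3 and 2 of 11 binding partners. Il1b was 11.8-fold higher and Cd14 8.74-fold higher in the oral section.

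Likeness was measured as Pearson's r of log2(CPM + 10) over 24 class-by-section profiles, among 12071 genes, as a description the profiles coming from 4 libraries. Lcn2 and Saa3 were among each other's closest (r = 0.94), and Lcn2 was the closest to Saa1 (0.92). The 5 nearest to Saa3 were Ccn1 (0.94), Lcn2, Cyp7b1 (0.91), Mmp19 (0.90) and Rarres2 (0.90). Lbp had the closest neighbours, Kcnab2, Cfb and Cd163 (each 0.96) and Pcsk5 and C4b (each 0.95). Hp was nearest to H2-DMa (0.92), Il3ra, Ffar2 and Atp13a2 (each 0.91) and the transferrin gene Trf (0.90). No other member was among the 5 nearest of Hp or of Lbp, and r between Hp and Lbp was 0.81. Saa1 was followed by Saa2 (0.90), Has1 (0.87), Saa3 (0.86) and Usp36 (0.85), and Saa2 by Saa1, Ndnf (0.89), Slc13a3 (0.88), Syt13 (0.87) and Lvrn (0.87). For Lcn2 the remaining 3 were Pla1a (0.88), Defb8 (0.86) and Klrb1b (0.86).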

How the data were processed

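For each section the authors deposited raw UMI counts per gene and spot, with Space Ranger 1.3.1 as the software per the file headers. Build mm10 and the tools Space Ranger and Seurat stand in the submitters' processing notes. The annotation release and the read assignment were not given in the sources used here. The 6 genes, the marker and pathway lists, the comparisons and the alternatives were chosen with earlier results of these data known.

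Counts were summed per section or class and scaled to CPM of all UMIs summed. Intervals are at 95%, exact Poisson for CPM and exact conditional for log2 ratios. A count of 0 was set to a floor of 3 UMIs for a fold. Such a fold is not a limit of the 95% interval. Spots with at least 1000 UMIs were classed by 9 marker lists, with the score log2((list UMIs + 1)/(spot UMIs × reference share + 1)), and a class was reported from 10 spots. No doublet caller was run. Any 2 sections share 46 to 347 spot barcodes, which are positions on a common array design. Up to 4 pathway genes per list and comparison were named, largest ratio first among those counted, and 5 genes per member by likeness.

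Alternatives were TMM scaling, totals without mitochondrial genes, spots with at least 1000 UMIs, no neutrophil spots, a 2-fold minimum, a score of 2, Leiden clusters (resolution 0.5), bins by marker share and leaving out 1 part of a section. Added after seeing the data were no score limit, leaving out fat, fibroblast, macrophage and neutrophil spots, and the description of pieces of tissue. Python 3.11.15, scipy 1.17.1 and scanpy 1.11.5 were used, and the counting was tested on simulated data.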

Additional observations from a re-analysis of the deposited data

Results flagged for a closer look

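For 2 of the genes the facial and oral wound comparisons went opposite ways. The Saa3 log2 ratio of day 4 to unwounded tissue was 7.32 in oral mucosa and -5.08 in facial skin, a difference of 12.41 (oral minus facial). For Lcn2 it was 1.78 in oral mucosa and -4.46 in facial skin, a difference of 6.24. Each side is 1 section, so the differences were not tested. In both tissues the section with the higher level also had the higher summed neutrophil markers, 438 CPM in unwounded facial skin (91.0 at day 4) and 206 CPM in day 4 oral mucosa (15.2 unwounded). Within unwounded facial skin, neutrophil spots held Saa3 at 399 and Lcn2 at 149 CPM, below the 3811 and 265 CPM of fibroblast spots. Within day 4 oral mucosa they held 366 and 71.4 CPM, above the 56.8 and 5.16 CPM of fibroblast spots. The part of neutrophils in the result was not tested.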

How the results depend on the processing

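No paired analysis was possible because each group held 1 section. Of the counts of members, 28 values under an alternative moved by over 1.5 times. Many other counts were 0 or had no usable member, so that their lack of change says nothing about stability. In day 4 oral against day 4 facial skin over all spots, the count of higher genes was 1 and became 2 with TMM scaling, 2 without mitochondrial genes and 0 without neutrophil spots. Ranking by marker share in place of classes gave 4 lower epithelial genes in day 4 against unwounded facial skin (0 with classes, 4 without a score limit) and 5 in unwounded oral against facial epithelium (0 with classes, 5 without a limit). It gave 1 higher in the oral wound epithelium, 2 higher in the oral wound fibroblast spots, 2 higher in day 4 oral against facial epithelium, 0 higher in fat against fibroblast spots of unwounded facial skin, 1 lower in epithelium and 1 lower in fat against fibroblast spots of unwounded oral mucosa, and 3 lower in epithelium against fibroblast spots of day 4 oral mucosa. In epithelium against fibroblast spots of day 4 facial skin it gave 1 higher gene, as did no score limit. A score of 2 gave 1 lower in day 4 oral against facial fibroblast spots and 1 lower in fat against fibroblast spots of unwounded facial skin. The cause was not tested. Leaving out 1 part of a section gave, in day 4 against unwounded facial skin, 0 to 1 higher and 5 to 6 lower genes, in the oral wound comparison 2 to 3 higher, and between the day 4 tissues 0 to 2 higher and 1 to 3 lower. For day 4 oral against facial tissue it gave 0 to 1 lower in epithelium and 1 to 2 lower in fibroblast spots, for fibroblast spots of the facial wound comparison 4 to 5 lower, and for fat against fibroblast spots of unwounded facial skin 0 to 1 lower. Single genes reversed there. The log2 ratio of Hp in fibroblast spots of the facial wound comparison ran from -2.73 to 0.32, the latter without part 1 of the unwounded section. Hp in epithelium of the day 4 tissues ran from -2.01 to 0.039, the latter without part 2 of the oral one. Saa3 in fibroblast spots of the day 4 tissues ran from -3.65 to 0.38 (without part 2 of the oral section) and was 0.17 without part 1 of the facial one. A score of 2 and Leiden clusters left fewer than 10 spots on a side for most epithelium and fibroblast comparisons, and fat in day 4 oral mucosa held 1 spot, so these were not run. Precision is limited by depth in the oral sections, where 3 UMIs equal 0.412 and 0.999 CPM, and by 11 shallow epithelium spots in unwounded facial skin.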

Other observations

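Orm1, which encodes the acute-phase protein orosomucoid 1, was distributed unlike the 6 genes, and it was singled out after its values were seen. In unwounded facial skin it stood at 514 CPM (326 to 772) in the 11 epithelium spots, 95.4 CPM in mixed spots, 39.8 CPM in fat and 4.61 CPM (0.559 to 16.7) in fibroblast spots. In day 4 facial skin it stood at 137 CPM (118 to 157) in epithelium, 42.1 CPM in fat and 8.48 CPM in fibroblast spots. Over whole sections it was at 66.2 CPM in unwounded and 79.0 CPM in day 4 facial skin, and at 0.412 and 0.666 CPM in oral mucosa.

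Il1b was held by the neutrophil spots in both sections where it was high, at 3876 CPM in unwounded facial skin and 1139 CPM in day 4 oral mucosa, against 129 and 10.3 CPM in fibroblast spots. Serpina3n stood at 657 CPM in fibroblast, 588 CPM in macrophage and 100.1 CPM in neutrophil spots of unwounded facial skin, and had 0 UMIs in the neutrophil spots of day 4 oral mucosa, where its fibroblast spots held 98.1 CPM.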
